A study of Mus musculus with 6 samples.

Results

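The genes described are 10 of the 28000 genes measured: Ly6d, Lgals3, Capns2, Elovl4, Them5, Sbsn, Asprv1, Krtdap, Dmkn and Fam25c. They were chosen by a measured value, a large rise between embryonic days E13.5 and E14.5 in keratinocytes of the control libraries, so that rise is given below as a description, with no test. The material was mouse embryonic flank and dorsolateral skin, read as single cells with a droplet method that counts transcripts at their 3′ end by unique molecular identifiers (UMIs). There were 6 libraries, each made from 3 to 4 pooled embryos. Each stage had 2 control libraries and 1 LOF library. All were labelled CD1. Controls were labelled WT, and the LOF (loss of function) embryos carried PDGFRalphaCreER(Lo), beta-catfl/fl and mTmG, with tamoxifen at E11.5 by oral gavage in corn oil. The labels name tamoxifen for the LOF mice and do not say whether controls received it. The Cre recombinase is driven from Pdgfra, a gene of dermal fibroblasts, so keratinocytes are not the cells in which this driver is known to act. Replicates were numbered 1 and 2 in the order of deposit.

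The epidermis is built from a basal layer of Krt5 and Krt14 cells, whose daughters move up, switch on Krt1 and Krt10 and become suprabasal. Higher up they load the proteins of the cornified envelope and the ceramide lipids that seal the skin before birth. Suprabasin (Sbsn), dermokine (Dmkn) and keratinocyte differentiation-associated protein (Krtdap) are secreted proteins of these upper layers. Elovl4 makes the ultra-long fatty acids of barrier ceramides, and Them5 is an acyl-CoA thioesterase of mitochondria. Asprv1 is an aspartic protease that trims profilaggrin, and Capns2 is a regulatory subunit of the calpain proteases. Ly6d is a lipid-anchored surface protein of stratified epithelia, Lgals3 encodes galectin-3, a lectin that binds galactosides, and Fam25c encodes a small protein.

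Sbsn, Dmkn and Krtdap lie side by side on one strand of chromosome 7 and are the 3 protein-coding genes of a stretch of 39627 bases. In the GENCODE vM21 annotation of GRCm38, Sbsn spans positions 30751471 to 30756134, Dmkn 30763756 to 30781063 and Krtdap 30787896 to 30791097. Of the 10 genes, 9 matched RefSeq promoters (GRCm38.p6), with 11 start sites between them, and Ly6d had no entry. The 250 bases before each start were searched on both strands for the AP-1 motif TGANTCA, the Klf motif GGGNGNGG, the C/EBP motif TTGCNNAA, the AP-2 motif GCCNNNGGC and the grainyhead motif AACNGGTT. The AP-1 letters were present at 6 of the 11 start sites, those of Sbsn, Krtdap, Fam25c and all 3 of Dmkn, against 6.75% of all 32851 promoters of the table. The C/EBP letters were present at 4 of 11 (9.56% of all promoters), the Klf letters at 10 of 11 (45.9%), the AP-2 letters at 1 of 11 (13.7%) and the grainyhead letters at 0 of 11 (1.79%). These are matches of letters and not measured binding sites. The first 2 starts of Dmkn lie within a few bases of each other and share their matches. The 4 promoters below are shown because they cover the chromosome 7 cluster and the other gene with an AP-1 match. They are chr7:30751221-30751470 on the plus strand for Sbsn, chr7:30763506-30763755 on the plus strand for the first start of Dmkn, chr7:30787655-30787904 on the plus strand for Krtdap, and chr14:34355394-34355643 on the minus strand for Fam25c. Capitals mark matches of any of the 5 motifs.
Sbsn: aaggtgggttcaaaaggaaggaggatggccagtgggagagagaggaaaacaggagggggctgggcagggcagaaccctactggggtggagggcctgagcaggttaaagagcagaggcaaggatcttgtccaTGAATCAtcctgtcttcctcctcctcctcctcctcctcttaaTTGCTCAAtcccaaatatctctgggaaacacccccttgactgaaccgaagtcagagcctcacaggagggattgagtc
Dmkn: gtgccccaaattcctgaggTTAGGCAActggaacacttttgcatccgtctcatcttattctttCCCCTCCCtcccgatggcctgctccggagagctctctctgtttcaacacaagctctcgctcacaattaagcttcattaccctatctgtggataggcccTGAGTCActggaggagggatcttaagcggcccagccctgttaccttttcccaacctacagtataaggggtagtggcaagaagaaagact
Krtdap: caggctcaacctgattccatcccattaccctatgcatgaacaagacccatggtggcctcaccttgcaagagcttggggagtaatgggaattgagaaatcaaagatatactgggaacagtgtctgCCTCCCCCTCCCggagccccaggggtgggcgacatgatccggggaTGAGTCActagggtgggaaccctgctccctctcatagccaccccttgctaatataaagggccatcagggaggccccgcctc
Fam25c: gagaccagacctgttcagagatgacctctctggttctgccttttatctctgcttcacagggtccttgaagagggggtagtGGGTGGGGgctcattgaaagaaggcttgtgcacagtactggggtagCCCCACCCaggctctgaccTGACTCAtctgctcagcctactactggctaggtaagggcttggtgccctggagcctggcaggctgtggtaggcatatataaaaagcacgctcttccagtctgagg

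In these sequences the AP-1 match of Sbsn is TGAATCA, 119 to 113 bases before the start. Dmkn has TGAGTCA at 89 to 83 bases, Krtdap has TGAGTCA at 81 to 75 bases, and Fam25c has TGACTCA at 105 to 99 bases before the start. Capns2 (chromosome 8, 92901407 to 92902411) lies inside Lpcat2 on the same strand, so reads from one could be given to the other. Lpcat2 had 26 to 491 UMIs per library in keratinocytes, against 8 to 2262 for Capns2. Sbsn overlaps a noncoding transcript unit of Tmem147os on the same strand, which was not analysed here. The other members lie apart, with Ly6d on chromosome 15, Lgals3 and Fam25c on 14, Elovl4 on 9, Them5 on 3 and Asprv1 on 6.

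Keratinocytes were cells with at least 10 UMIs over Krt5, Krt14, Krt15, Epcam and Perp, and 9033 of 38397 cells kept met this rule. Total UMIs per library ranged from 53461986 to 86446575, and median UMIs per cell from 8192 to 11323. Keratinocytes numbered 1036 and 1054 in the E13.5 controls, 1774 and 1810 in the E14.5 controls, and in LOF 749 (E13.5) and 2610 (E14.5). Cells with 8 or more UMIs of Krt1 and Krt10 were called suprabasal and those with 3 or fewer basal. At E13.5 suprabasal cells numbered 14 and 1 in the controls and 16 in LOF. At E14.5 they numbered 520 (29.3%, exact binomial 95% interval 27.2 to 31.5%) and 531 (29.3%, 27.3 to 31.5%) in the controls and 612 (23.4%, 21.8 to 25.1%) in LOF. The floxed gene, Ctnnb1, was at 168 to 193 CPM (UMIs per 1000000 in the summed cells) in dermal cells of the controls and at 247 (E13.5) and 197 (E14.5) in those of LOF. In keratinocytes it was at 459 and 382 in the E13.5 controls against 284 in LOF, and at 290.0 and 293 in the E14.5 controls against 256 in LOF. LOF thus lay above every control in dermal cells and below both controls of its stage in keratinocytes. Where the counted 3′ end lies relative to the deleted part is not given, so these levels do not check the labels. Intervals cover counting error only, and a library of pooled embryos is the unit of replication.

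All 10 genes were at far higher levels in the keratinocytes of every E14.5 library than in those of any E13.5 library. CPM are not scaled by gene length. They are therefore compared between libraries or cell classes and not between genes. In the chromosome 7 cluster, Krtdap was at 86.6 and 12.6 in the 2 E13.5 controls and at 1721 and 2498 in the 2 E14.5 controls. Dmkn was at 20.2 and 2.09 at E13.5 and at 1056 and 1235 at E14.5. Sbsn was at 12.8 and 4.36 at E13.5 and at 313 and 280 at E14.5. The stages did not overlap for these 3 genes, and the E13.5 controls differed from each other by a greater ratio than the E14.5 controls did, with control 1 the higher.

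Of the 10 genes Elovl4 had the closest E14.5 controls. This elongase was at 2.80 and 1.13 in the E13.5 controls and at 139 and 147 at E14.5, a mean of 143 ± 6.08 (SD, n = 2). Them5 was at 3.00 and 1.92 at E13.5 and at 122 and 153 at E14.5. The protease Asprv1 was at 8.93 and 4.54 at E13.5 and at 186 and 230 at E14.5. Its libraries were about as close as those of Them5. The calpain subunit Capns2 was at 0.978 and 0.698 at E13.5 and at 48.1 and 119 at E14.5, a mean of 83.6 ± 50.3 (SD, n = 2). Among the 10 genes it was the one whose E14.5 controls lay furthest apart in ratio, control 2 being the higher. Ly6d was at 0.521 and 0.349 at E13.5, from 8 and 4 UMIs, and at 75.0 and 57.7 at E14.5. Lgals3 was at 3.91 and 1.57 at E13.5 and at 151 and 179 at E14.5. Fam25c was at 1.56 and 0.524 at E13.5 and at 53.4 and 84.4 at E14.5. For these 3 genes too, the lowest E14.5 control lay far above the highest E13.5 control. Fitted log2 fold changes of the 10 genes ranged from 5.02 (Asprv1) to 7.26 (Ly6d), with a median of 6.02 against 0.05 over all genes. In that comparison 2.40% of 12770 genes were called higher at an adjusted p under 0.05 (edgeR's quasi-likelihood test). That comparison chose the 10 genes, so no calls are given for them and nothing is read from their sizes.

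The comparison that chose the genes used control libraries only, and in the LOF libraries all 10 were again higher at E14.5. Earlier results of these data were known at the choice, so this is a description and no independent check. With 1 library per stage it also has no replicate check. Dmkn was at 11.1 at E13.5 and 918 at E14.5, an 82.9-fold difference (95% interval of the counts 70.1 to 98.9). Elovl4 was at 0.896 and 114, a 127-fold difference (70.7 to 254). Krtdap was at 55.5 and 1585, a 28.5-fold difference (26.5 to 30.8). The Elovl4 ratio rests on 11 UMIs at E13.5, and its interval overlaps those of Dmkn, Ly6d (29.3 to 151), Capns2 (33.9 to 131) and Them5 (38.5 to 89.8). The other 7 ratios were 24.3 for Fam25c, 26.3 for Asprv1, 31.1 for Lgals3, 33.7 for Sbsn, 57.4 for Them5, 60.6 for Ly6d and 62.5 for Capns2. Among 13924 genes with at least 10 UMIs over both libraries, 1.43% were at least 8-fold higher at E14.5, and all 10 were among them.

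**Figure D1:**
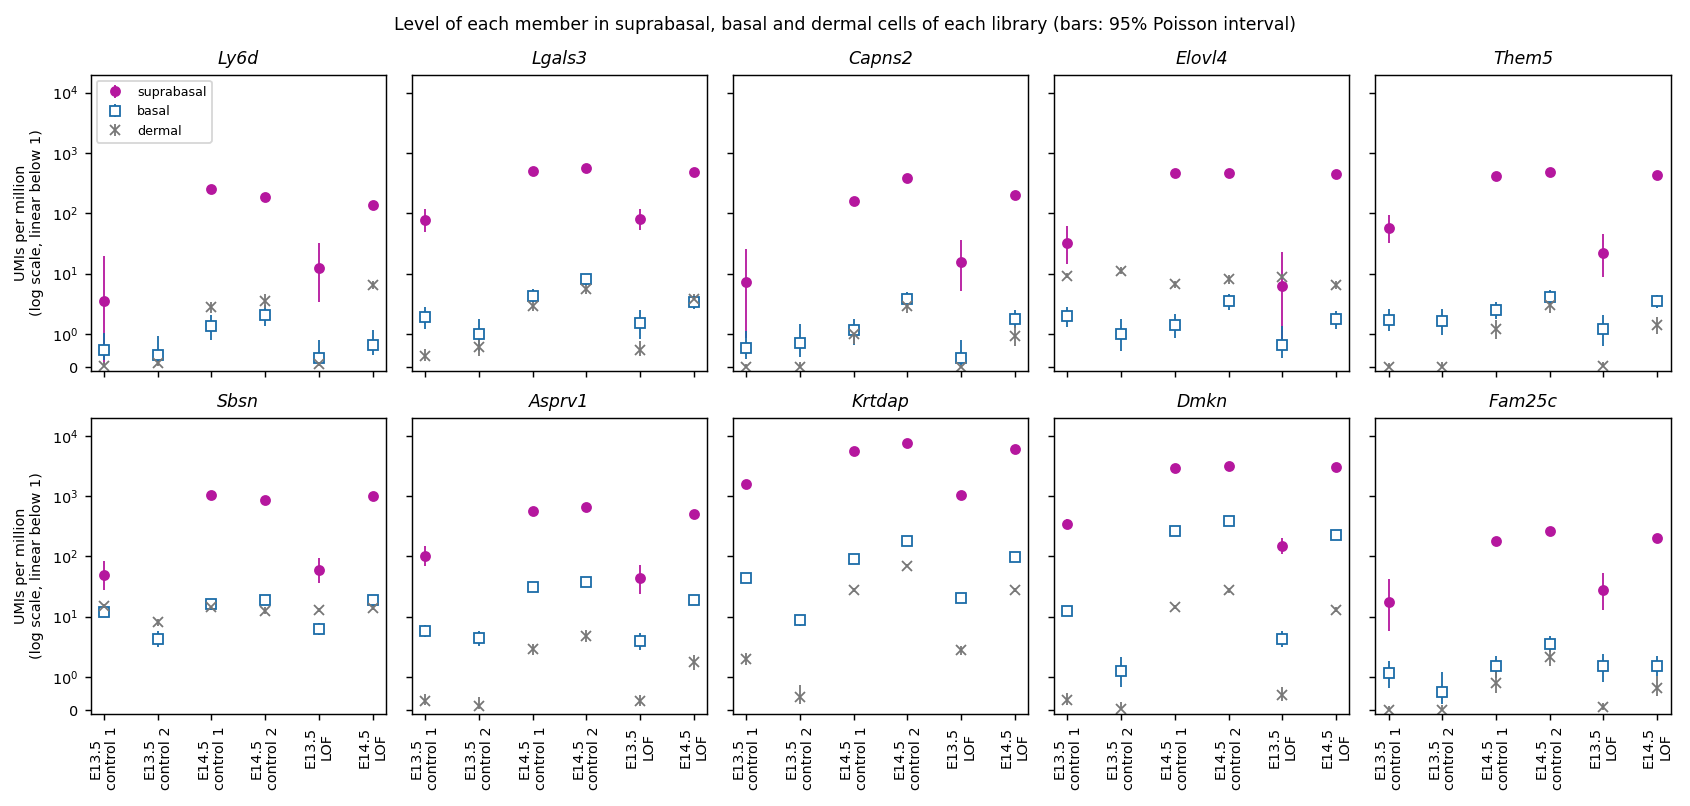
Level of each gene in suprabasal cells (filled circles), basal cells (open squares) and dermal cells (crosses) of each library, in CPM on a log axis that is linear below 1, with bars for the 95% Poisson interval. No suprabasal point is drawn for E13.5 control 2, which had 1 such cell. At E14.5 suprabasal cells lie above basal cells in all 3 libraries for every gene, and basal cells lie well above dermal cells for Dmkn and Asprv1.

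Within E14.5 the 10 genes were carried by suprabasal cells. Krtdap stood at 5626, 7648 and 6018 CPM in suprabasal cells of control 1, control 2 and LOF, and at 89.6, 180 and 98.2 in basal cells. Elovl4 stood at 469, 470 and 450 in suprabasal cells and at 1.39, 3.44 and 1.74 in basal cells. Suprabasal and basal values did not overlap for either gene. Over the 3 E14.5 libraries, with library as a term, edgeR called all 10 genes higher in suprabasal cells, where 34.6% of 11809 genes were called higher. The median log2 difference of the 10 was 6.78, against 0.00 over all genes tested. They ranked from 14 (Elovl4) to 317 (Dmkn) of 11809 by fold. Of the 3 libraries, the 2 controls also served the stage comparison that chose the genes, and suprabasal cells were far more common in E14.5 than in E13.5 controls. Genes of suprabasal cells were therefore likelier to be chosen. For the 10 genes these calls, sizes and ranks, and the adjusted p-values below, are a description and support nothing.

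By role, the log2 difference between suprabasal and basal cells was 5.86 (SE 0.19, adjusted p = 0.00129) for Krtdap, 5.84 (SE 0.06, adjusted p = 1.22e-22) for Sbsn and 3.50 (SE 0.20, adjusted p = 0.0044) for Dmkn. Without E14.5 control 1 the adjusted p of Dmkn was 0.0655, with a log2 difference that stayed between 3.36 and 3.69 over the libraries left out. The lipid enzymes differed by 7.88 (SE 0.27, adjusted p = 0.00117) for Elovl4 and 7.16 (SE 0.07, adjusted p = 1.29e-36) for Them5. Asprv1 differed by 4.45 (SE 0.18, adjusted p = 0.00107). Capns2 differed by 6.90 (SE 0.08, adjusted p = 9.96e-37), although its levels of 161, 379 and 198 in suprabasal cells were far from equal. Ly6d differed by 7.30 (SE 0.13, adjusted p = 1.58e-13) and Lgals3 by 6.79 (SE 0.26, adjusted p = 0.00178). Fam25c differed by 6.77 (SE 0.10, adjusted p = 8.43e-26). Dmkn and Asprv1 thus had the smallest of the 10 differences and Elovl4 the greatest. With upper-quartile factors the split of all genes called moved from 4085 higher and 3881 lower to 3245 and 4929, the log2 differences of the 10 genes fell by 0.13 to 0.14, and they were still called higher.

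Other cell types differed between the classes as well. Krt4, a keratin of periderm, was at 1.71, 165 and 17 CPM in suprabasal cells of control 1, control 2 and LOF and at 9.45, 68.9 and 50.6 in basal cells. Krt19, another periderm keratin, was at 0.569, 150 and 5.47 against 8.82, 70.3 and 39.9. Both were higher in suprabasal than in basal cells in control 2 and lower in the other libraries. Together they had 5 or more UMIs in 0, 3 and 2 suprabasal cells. The 10 calls were unchanged with such cells left out, an alternative chosen after seeing the data. Summed dermal fibroblast markers were lower in suprabasal than in basal cells (154, 358 and 220 against 456, 649 and 503).

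At E14.5 the basal level was above the dermal level in each library for Dmkn, Krtdap and Asprv1. By smaller ratios, 1.12 to 2.51, this also held for Sbsn, Them5, Fam25c and Capns2. For Lgals3 it held in the controls (ratios 1.46 and 1.44) and not in LOF (0.867). Of all UMIs of Dmkn in E14.5 keratinocytes, 82.0, 77.4 and 81.0% lay in suprabasal cells of control 1, control 2 and LOF. For Asprv1 that share was 88.5, 88.4 and 89.7%, and for the other 8 genes it was 94.2 to 99.2%. After thinning to 3000 UMIs per cell, 40.8, 50.5 and 35.9% of basal cells had a UMI of Dmkn, against 4.92, 8.13 and 3.94% of dermal cells, which should lack the gene. Unthinned, the shares were 69.0, 75.9 and 57.7% against 13.8, 18.6 and 9.67%, at median depths of 13204, 9796 and 9856 UMIs in basal and 10053, 7250.5 and 7683 in dermal cells. The basal level of Dmkn was 263, 388 and 224 CPM, well above the dermal level of 14.5, 27.4 and 13.1. Asprv1 was at 30.6, 37.7 and 18.6 in basal cells, and thinned shares with a UMI were 8.25, 9.62 and 4.50% against 0.901, 1.36 and 0.626% in dermal cells. Krtdap, at the basal levels given above, was at 27.6, 69.8 and 27.7 CPM in dermal cells. Its thinned shares with a UMI were 19.3, 31 and 19.1% in basal and 8.28, 19.4 and 8.16% in dermal cells, and unthinned 49.5, 61.9 and 40.7% against 24.7, 38.8 and 19.1%. For Dmkn, Asprv1 and Krtdap every basal level lay above every dermal level. The share of all genes for which this held was not computed, so it is not read as particular to these genes.

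At E14.5 the ratio of Dmkn to Krtdap UMIs separated basal cells from the others. It was 0.525, 0.406 and 0.496 in suprabasal cells and 0.524, 0.392 and 0.474 in dermal cells of the 3 E14.5 libraries. In basal cells it was 2.93, 2.16 and 2.28. The dermal ratio was close to the suprabasal one and the basal ratio was not. Ratios of other genes to Krtdap differed in direction. In basal against suprabasal cells, Asprv1 was higher (0.341, 0.210 and 0.189 against 0.0996, 0.0862 and 0.0833). Sbsn was close (0.184, 0.1035 and 0.190 against 0.182, 0.113 and 0.168), and Lgals3 and Elovl4 were lower. E14.5 basal cells with 3 or more UMIs of Dmkn (494, 552 and 587 cells) were next set against those with 0 (368, 290 and 813 cells). Krtdap was at 136, 248 and 169 CPM in the first and 46.7, 98.9 and 51.1 in the second. Krt15, a basal keratin, was at 1476, 1326 and 1806 against 1085, 960 and 1441, so cells with Dmkn had not lost it. Krt10 was at 58.9, 64.9 and 54.2 against 49.8, 64.7 and 56.5. The cells with Dmkn were deeper (medians 14404, 10586 and 10720 UMIs against 12374, 8528.5 and 9382), and the part of depth in these values was not tested.

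Elovl4, Sbsn and Ly6d behaved otherwise in dermal cells. Dermal cells of the E13.5 libraries (control 1, control 2 and LOF) held Elovl4 at 9.18, 11.2 and 8.81 CPM, and those of E14.5 at 6.58, 8.10 and 6.50. Basal keratinocytes of the same libraries held 1.94, 0.999 and 0.657 at E13.5 and 1.39, 3.44 and 1.74 at E14.5, below dermal cells in all 6. Sbsn was at 15.2, 8.0 and 13 in E13.5 dermal cells, where basal keratinocytes held 12.1, 4.27 and 6.29 and Krtdap was at 1.98, 0.398 and 2.74. At E13.5 dermal cells thus had Sbsn above basal keratinocytes in each library, and at E14.5 below them (14.3, 12.6 and 14 against 16.5, 18.6 and 18.6). Ly6d was at 2.74, 3.52 and 6.50 in E14.5 dermal cells and at 1.32, 2.05 and 0.664 in basal cells. Of its 84, 60 and 202 dermal UMIs, 21, 5 and 33 lay in 1 cell each, where the highest cell of Elovl4 or Sbsn at E14.5 held 2 or 3.

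Across cells ordered by their Krt1 and Krt10 UMIs, the 10 genes did not come up together. In cells with 8 to 15 such UMIs (29, 50 and 32 cells), Dmkn had reached 46.7, 49.7 and 33.2% of its level in cells with 64 or more. Krtdap had reached 38.5, 49.6 and 28.1%, and Asprv1 35.9, 33.3 and 14.2%. Fam25c had reached 4.26, 26.8 and 1.12%, and Capns2 4.73, 25.6 and 2.52%. Dmkn and Krtdap were ahead of these last 2 genes in each library, and control 2 was ahead of the other libraries for Fam25c and Capns2. One step up, at 16 to 31 UMIs, Dmkn stood at 68.5, 63.4 and 64% and Fam25c at 14.9, 27.8 and 16.5%. Sbsn, Elovl4, Them5, Lgals3 and Ly6d ranged from 7.22 to 27.0% at 8 to 15 UMIs. One step down, at 4 to 7 UMIs, Dmkn stood at 11.4, 16.7 and 12.8% and Krtdap at 4.08, 6.74 and 7.25%. The values just inside and just outside the limit of 8 UMIs therefore differed by several fold for both. The order is a description, since few cells fill the low bins and the genes differ in count.

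**Figure D2:**
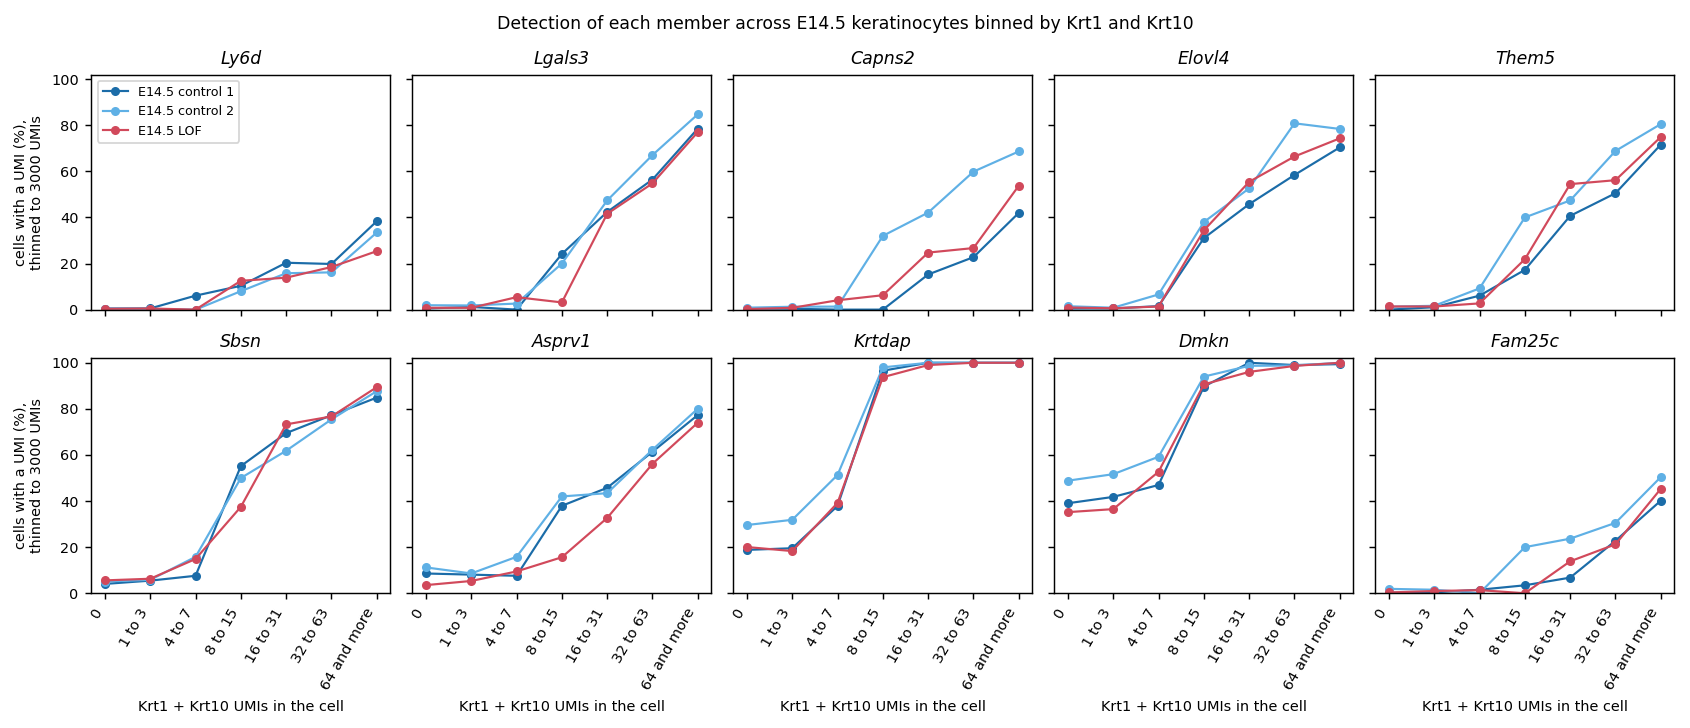
Percentage of E14.5 keratinocytes with a UMI of each gene after thinning to 3000 UMIs per cell, by the number of Krt1 and Krt10 UMIs in the cell, 1 line per library. Krtdap and Dmkn are found in 93.8 to 98.0% and 89.7 to 94.0% of cells with 8 to 15 such UMIs, while Fam25c is found in 0 to 20.0% there and in 40.2 to 50.4% of cells with 64 or more.

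Most suprabasal cells held nearly the whole group. The mean number of the 10 genes with a UMI was 8.30, 8.37 and 8.02 per suprabasal cell of control 1, control 2 and LOF at E14.5, and 6.33, 6.67 and 6.25 after thinning. Basal cells held 1.74, 1.98 and 1.38. All 10 were found in 151 (29.0%), 137 (25.8%) and 113 (18.5%) suprabasal cells, and at least 5 in 95.6, 96.6 and 94.3%. The few E13.5 suprabasal cells held 5.50 (14 cells) and 3.00 (1 cell) in the controls and 4.56 (16 cells) in LOF, and none of them held all 10. Krtdap was found in 99.8 to 100% of E14.5 suprabasal cells and Dmkn in 99.8 to 100%. Ly6d and Fam25c were the scarcest. Ly6d was found in 55.2, 41.6 and 38.6% unthinned and 31.2, 23.1 and 21.2% thinned, and 1.49, 1.85 and 1.40% of dermal cells had it unthinned. Fam25c was found in 56.4, 62.0 and 55.4% (31, 37.4 and 32% thinned), and in control 1 their thinned shares were nearly equal. Ly6d was also the most uneven: its 10 richest cells held 21.1, 22.6 and 22.7% of its keratinocyte UMIs, where those of Dmkn held 4.71, 4.24 and 4.27%.

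**Figure D3:**
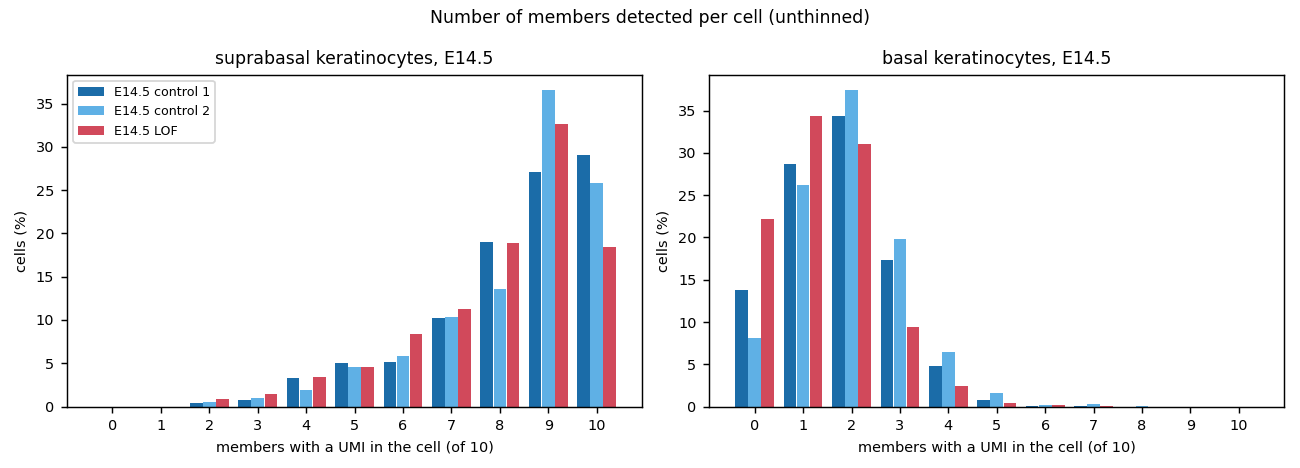
Percentage of E14.5 suprabasal (left) and basal (right) keratinocytes by how many of the 10 genes had a UMI in the cell, unthinned, 1 bar per library. Suprabasal cells peak at 10 genes in control 1 and at 9 in control 2 and LOF, with a lower bar for LOF at 10 (18.5% against 29.0 and 25.8%). Basal cells peak at 2 genes in the controls and at 1 in LOF.

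Cells with all 10 genes were compared with suprabasal cells that had 7 or fewer. Their median Krt1 and Krt10 UMIs were 169, 91 and 134 against 30, 23 and 28. Cells with 3 or more UMIs over Mki67, Top2a, Ccnb1 and Cdk1, which mark dividing cells, made up 27.2, 29.2 and 38.1% of the first and 77.5, 56.2 and 67.8% of the second. Median depth was 15488, 12360 and 13145 UMIs against 8970, 8886.5 and 9417, so the cells with fewer genes were also shallower. The part of depth in the number of genes per cell was not tested here.

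All 10 genes were higher in suprabasal cells with 0 UMIs of the cell cycle markers than in those with 3 or more, in each E14.5 library. The first group had 159, 188 and 205 cells in control 1, control 2 and LOF, and the second 249, 211 and 292. Fam25c was at 331, 419 and 359 CPM in the first and 57.8, 104 and 80.7 in the second, a ratio of 5.73, 4.02 and 4.45. Fam25c had the greatest ratio of the 10 in each library. Sbsn had 2.91, 2.51 and 2.63 and Asprv1 2.89, 2.66 and 2.37. Krtdap had 1.68, 1.42 and 1.65 and Dmkn 1.42, 1.41 and 1.46, the lowest of the 10 in control 1 and LOF. Ly6d had the least steady ratio, 2.68, 1.18 and 1.55, and in control 2 it was the lowest of the 10. The ratios of Lgals3, Elovl4, Them5 and Capns2 ranged from 1.73 to 2.52. No test of this split was made. The share of all genes that were higher in the first group was not computed. The shared direction is therefore not read as particular to the 10 genes.

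**Figure D4:**
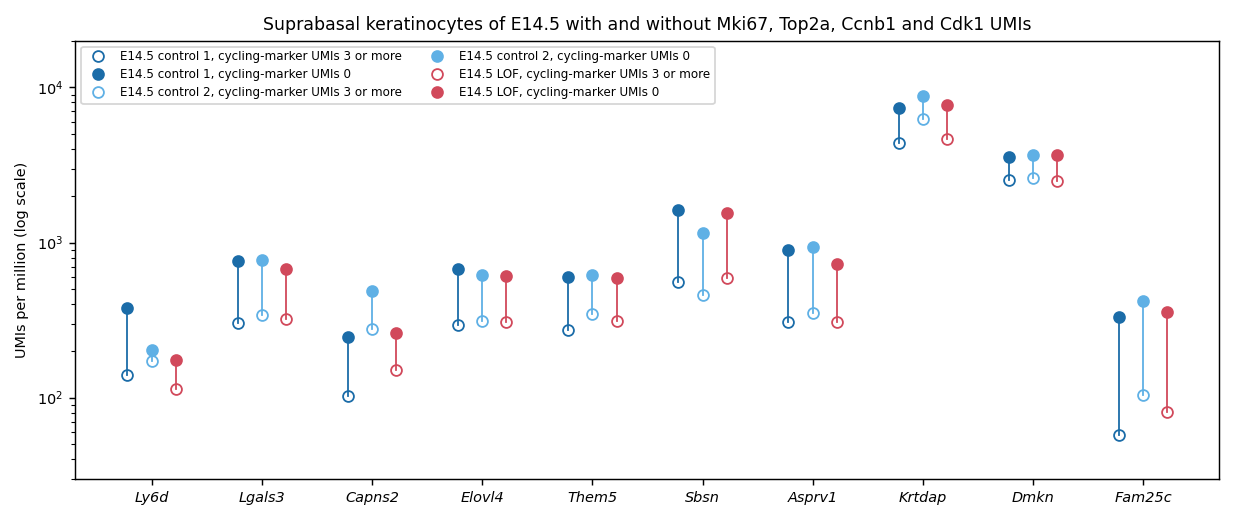
Level of each gene in E14.5 suprabasal cells with 3 or more UMIs of Mki67, Top2a, Ccnb1 and Cdk1 (open) and with 0 (filled), in CPM on a log axis, 1 pair of points per library. Filled points lie above open points for every gene and library, with the widest gaps for Fam25c (ratios 4.02 to 5.73).

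Among suprabasal cells thinned to 3000 UMIs, Krtdap with its chromosome 7 neighbours had the highest correlations of the 10 genes. Pearson's r of log2(UMIs + 1) averaged 0.524 for Krtdap with Dmkn (0.478 to 0.589 over the 3 libraries) and 0.509 for Krtdap with Sbsn (0.489 to 0.534). Dmkn with Sbsn gave 0.379. The lowest pair was Ly6d with Capns2 at 0.0672. Genes with more UMIs give higher r in sparse counts, and Krtdap and Dmkn had the most UMIs of the 10, so neighbours and abundance cannot be told apart here. By detection, Asprv1 and Fam25c were found together 1.27 to 1.34 times as often as the product of their shares, while Krtdap, found in nearly all cells, gave 1.0 with each of the others. These values are over cells of 3 libraries and carry no test.

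**Figure D5:**
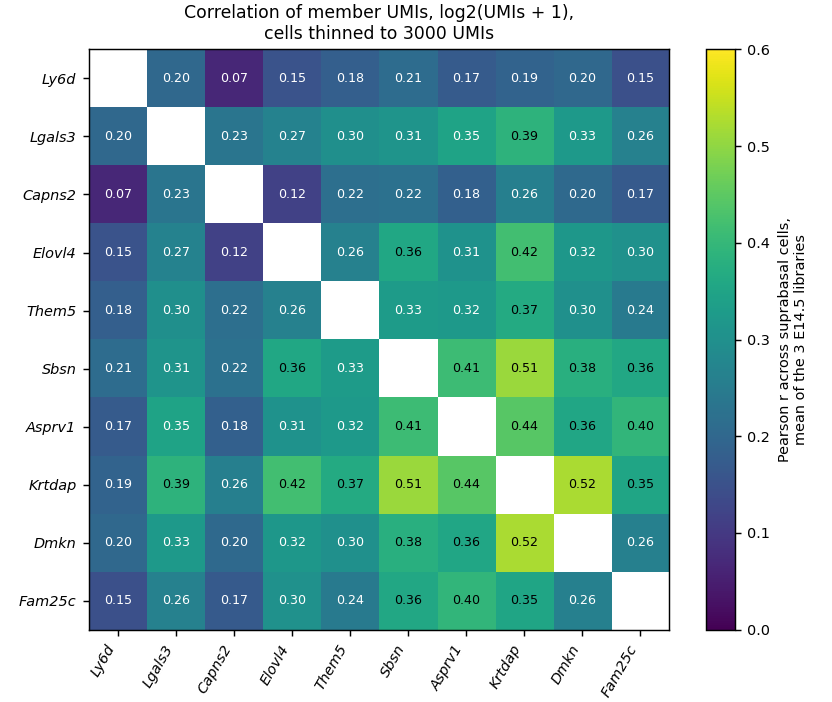
Pearson's r between the genes across E14.5 suprabasal cells, on log2(UMIs + 1) after thinning to 3000 UMIs, as the mean of 3 libraries. The brightest squares are Krtdap with Dmkn (0.524) and Krtdap with Sbsn (0.509), and the darkest is Ly6d with Capns2 (0.0672).

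A few E13.5 keratinocytes already carried part of the group. Cells with 5 or more UMIs of Krtdap, a limit chosen after the values were seen, numbered 50 of 1036 and 9 of 1054 in the controls and 32 of 749 in LOF. Of these, 26, 6 and 11 had no more than 3 UMIs of Krt1 and Krt10 and so were basal by the rule used here. Another 14, 1 and 14 had 8 or more and so were suprabasal. All 50, 9 and 32 cells together held 3.54, 2.78 and 3.12 of the other 9 genes per cell, against 0.266, 0.131 and 0.173 in cells without Krtdap. Dmkn was at 326, 119 and 173 CPM in all of them together, against 1.53, 0.537 and 0.361 in cells without Krtdap. Lgals3 was at 64.8, 89.2 and 69.5 against 0.363, 0.537 and 0.812. Asprv1 was at 84.7, 79.3 and 37.6 against 4.43, 3.76 and 3.07, and Sbsn at 47.3, 39.6 and 52.6 against 10.6, 4.12 and 5.42. Each of these 4 genes was higher in the Krtdap cells of all 3 libraries, as were Capns2, Them5 and Fam25c. Elovl4 was higher there in control 1 and LOF. In control 2 Elovl4 had 0 UMIs in the Krtdap cells, against 0.984 CPM in cells without Krtdap. The share of all genes higher in the Krtdap cells was not computed, so the direction is not read as particular to these genes. Ly6d was nearly absent, with 2, 0 and 4 UMIs in all.

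The same E13.5 cells differed in other genes. Cldn6, a claudin of early epithelia, was at 103, 178 and 145 CPM against 47.3, 48.8 and 46.9 in cells without Krtdap. Krt15 was at 98.4, 99.1 and 505 against 674, 633 and 967. Krt4, a periderm keratin, had 0 UMIs in the cells of both controls and 13 UMIs in 3 cells of LOF. Krt19 had 1 UMI in control 1, 0 in control 2 and 33 UMIs in 3 cells of LOF. The part of periderm cells in these values was not tested beyond these counts.

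Between genotypes, none of the 10 genes was called in keratinocytes. The question is whether loss of beta-catenin under the dermal driver went with a change in late differentiation genes of the epidermis. In whole E14.5 keratinocytes Ly6d was at 34.5 CPM in LOF, below both controls (75.0 and 57.7). Asprv1 was at 139 against 186 and 230, and Elovl4 at 114 against 139 and 147. LOF lay below both controls for 9 of the 10 genes and between them for Capns2, at 0.520 to 0.899 of the control mean (median 0.749). Of 14576 genes with at least 10 UMIs over these 3 libraries, 31.2% lay below both controls. The 10 genes lie in the same cells of the same libraries and do not count as separate evidence. At E13.5, with 8 UMIs of Ly6d or fewer per library, LOF lay between the controls for Krtdap, Dmkn, Sbsn, Asprv1, Capns2 and Them5, at the level of control 1 for Lgals3, below both for Elovl4 and above both for Fam25c and Ly6d.

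Fitted over all 6 libraries with stage as a covariate, 9 genes had a lower and 1 a higher estimate in LOF, with a median log2 difference of -0.29 against 0.01 over all genes, of which 50.9% had a positive estimate. Ly6d gave -0.70 (SE 0.33), Elovl4 -0.63 (SE 0.34), Capns2 -0.62 (SE 0.51), Asprv1 -0.53 (SE 0.29) and Them5 -0.37 (SE 0.25). Lgals3 gave -0.10 (SE 0.38), Sbsn -0.18 (SE 0.36), Krtdap -0.16 (SE 0.66), Dmkn -0.22 (SE 0.68) and Fam25c 0.04 (SE 0.48). The adjusted p of edgeR's quasi-likelihood test was 0.991 to 0.997 for the 10 genes, and the smallest unadjusted p was 0.0717, for Ly6d. Of 13114 genes, 0% were called, with 221 at an unadjusted p under 0.05, and DESeq2 called 4 genes. The standard errors of these last 5 genes were larger than their estimates, and for none of the 10 can a rise or a fall be read. Without E13.5 control 1 the estimates of Lgals3, Sbsn, Krtdap and Dmkn turned positive (0.09, 0.19, 0.65 and 0.66).

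Within suprabasal cells of E14.5 the gap between genotypes was smaller. LOF stood at 0.630 to 1.07 of the control mean (median 0.907), below both controls for 4 genes and between them for 6, where 27.5% of 12358 genes lay below both. The 4 were Ly6d (137 against 251 and 183 CPM, ratio 0.630), Asprv1 (502 against 560 and 659, ratio 0.822), Lgals3 (477 against 505 and 564, ratio 0.894) and Elovl4 (450 against 469 and 470, ratio 0.958). Sbsn was at 1009, between 861 and 1024, and Dmkn at 2985, between 2952 and 3107. The share of keratinocytes that were suprabasal, given above, was lower in LOF than in both controls (23.4% against 29.3 and 29.3%). After thinning each cell before the split it was 20.7% against 25.6 and 25.2%. In basal cells Dmkn was at 224 against 263 and 388, and Asprv1 at 18.6 against 30.6 and 37.7, below both controls. With 1 LOF library at E14.5 these are values without a test, and genotype, tamoxifen and embryo pool cannot be told apart.

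Other genes of terminal differentiation were higher in suprabasal cells too, by the same edgeR test and with the same 34.6% of all genes called higher. A gene can pass the filter on low counts through its suprabasal level alone, so the counts and medians over genes tested are a description and support nothing. Of the cornified envelope list, 36 genes long, 13 were tested and all 13 were called higher (median log2 difference 4.48 against 0.00 over all genes), with Hrnr at 9.04, Tgm3 at 7.80, Sprr1b at 7.78 and Tgm1 at 5.71. Hrnr and Sprr1b are envelope proteins and Tgm1 and Tgm3 the transglutaminases that crosslink them. Of the 20 barrier lipid genes 14 were tested and 13 were called higher (median 2.66), led by the ceramidase Acer1 (7.11), the lipid transporter Abca12 (7.09) and Pnpla1 (6.95). Of the 18 proteases and inhibitors 16 were tested and 12 were called higher (median 2.01), with Serpinb12 at 6.95 and Casp14 at 6.53. In this list 3 were called lower, Spink5 (-4.41), Ctsl (-3.90) and Capn2 (-0.74), the last being a calpain that the Capns subunits serve.

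Of the 18 early suprabasal genes 16 were tested and 14 were called higher (median 2.87), with Dsc1 at 9.09, Krt77 at 7.51 and Dsg1a at 7.07, while Krt16 was called lower (-0.74). Of the 18 regulators 17 were tested and 15 were called higher (median 2.13), led by Grhl1 (4.54), Ovol1 (4.53), Hopx (4.45) and Zfp750 (4.06). Trp63 (-1.57), the factor of basal keratinocytes, and Grhl2 (-0.68) were called lower. Of 20 family relatives of the 10 genes 15 were tested and 10 were called higher (median 1.88), among them the Ly6 relatives Ly6g6c (6.50) and Ly6k (4.27) and the elongases Elovl7 (3.70) and Elovl1 (3.51). Elovl2 (-4.59), Lgals9 (-2.99) and Ly6e (-0.44) were called lower, so relatives of the same families went in both directions. Between genotypes none of the genes on these 6 lists was called. Between stages in controls, where 2.40% of all genes were called higher, 9 of 11 tested, 6 of 13, 6 of 15, 11 of 16, 7 of 17 and 4 of 15 were called higher in the order above and none lower. The stage fit uses the comparison that chose the 10 genes.

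The genes whose levels ran most like the mean of the 10 were named over 18 sums, the basal, middle (4 to 7 UMIs of Krt1 and Krt10) and suprabasal cells of 6 libraries. Pearson's r was taken on log2(CPM + 10), among 2184 genes with at least 50 CPM in the suprabasal sum of each E14.5 library. The median r was 0.0428, and 0.504% reached 0.95. The 10 highest were Krt77 (0.975), Dsg1a (0.970), Serpinb3c (0.964), Serpinb12 (0.963), Gsta2 (0.959), Rdh12 (0.957), Evpl and Pla2g2f (both 0.954), and Acsl1 and Pycard (both 0.953). Sums of one library share its depth, and some E13.5 sums rest on few cells. Of the 10 genes themselves Them5 ran closest to their mean (0.976) and Dmkn least close (0.855), with Asprv1 at 0.922 and Krtdap at 0.925. Each of the 10 is part of that mean, so their r cannot be set against those of other genes. Krt77 stood at 207, 196 and 172 CPM in suprabasal cells of control 1, control 2 and LOF, and at 0.945, 2.05 and 0.613 in basal cells.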

How the data were processed

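The authors deposited raw UMI counts per gene and cell barcode, whole numbers with no normalization, from Cell Ranger and Seurat on mm10 (GRCm38), per the submitters' processing notes, with versions not given in the sources used here. Barcodes with at least 1000 UMIs and 500 genes were kept where mitochondrial UMIs made up no more than 10% (40653 of 41594). Simulated pairs of cells gave each barcode a doublet score within its library, on 2000 variable genes and 30 principal components (scikit-learn 1.9.0), and the top scores were removed at 0.8% per 1000 cells (4.68 to 7.14%), which left 38397. Between libraries 944 barcode sequences occurred in 2 and 7 in 3. Dermal cells had at least 20 collagen UMIs and at most 1 keratinocyte UMI. UMIs were summed per library and cell class and tested with the quasi-likelihood test of edgeR 4.0.16 in R 4.3.3 (TMM, filterByExpr, limma 3.58.1), adjusted by Benjamini-Hochberg over all genes tested, at 0.05. DESeq2 1.42.0 was an alternative. Genotype used 6 libraries with stage as a covariate, and suprabasal against basal cells used the E14.5 libraries with library as a term. P-values between genotypes or stages measure the spread between libraries of pooled embryos. Those of suprabasal against basal cells measure how the difference within a library varied over the 3 E14.5 libraries. In all fits edgeR also drew on other genes for the spread of each gene, so very small p-values rest partly on that. Fold intervals of single libraries are exact for counts. The computation ran in Python 3.11.15 (numpy 2.4.6, scipy 1.17.1, pandas 2.3.3) and were tested on simulated data.

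The 10 genes and all gene lists were chosen with earlier results of these data known. All 10 genes are named. From each list, up to 4 genes per direction with the largest change past 0.05 could be named, and the 10 genes most like the group by correlation.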

Additional observations from a re-analysis of the deposited data

Results flagged for a closer look

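Signal of the group was also seen in cells outside the keratinocyte rule. Cells with 8 or more Krt1 and Krt10 UMIs but under 10 UMIs of the keratinocyte genes numbered 24 in E14.5 control 1, 15 in E14.5 control 2 and 34 in E14.5 LOF, and 0 in each E13.5 library. Krtdap and Dmkn were found in all of them, and they held 7.0, 7.13 and 6.09 of the 10 genes per cell. Their median depth was 4361, 3774 and 3470.5 UMIs, under that of suprabasal cells within the rule (13714, 10750 and 10984). Collagen UMIs reached 20 in 3, 0 and 0 of them. Krtdap stood at 4303, 6224 and 5756 CPM and Dmkn at 2268, 2626 and 2164.

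Lgals3 was the member with a clear level in another cell type. In cells with macrophage markers it was at 54.7 and 142 CPM in E13.5 controls 1 and 2, at 177 in both E14.5 controls, and in LOF at 117 (E13.5) and 121 (E14.5). In whole keratinocytes of E13.5 it was at 1.57 to 3.91. Galectin-3 is a known product of macrophages. The part of macrophage RNA in keratinocyte values was not tested.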

How the results depend on the processing

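Suprabasal against basal cells was the steady comparison, and for the 10 genes it remained a description. All 10 genes passed the filter on low counts in each fit. Over 130 alternatives of the 10 genes (other factors, DESeq2, filters, gates, each library left out), 129 kept the direction and the call, and Dmkn without E14.5 control 1 did not (adjusted p 0.0655, log2 3.46). Leaving out E14.5 LOF and fitting the E14.5 controls alone are the same fit, counted in the 130 under both names. Without library as a term, that is with no replicate block, 3535 genes were called, of which 3531 were among the 7966. The labels give no replicate pairing between stages or genotypes. With the deposit order as a replicate block, 0 genes were called between genotypes and 2001 between stages.

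Between genotypes, 4 genes were called by DESeq2 and 2 with no filter on low counts. Of 140 estimates for the 10 genes under alternatives, 17 changed sign and none passed 0.05. Fam25c gave -0.0086 with upper-quartile factors, -0.0268 with no doublet removal, -0.13 with a keratinocyte gate of 20 UMIs and -0.29 without cells of 5 or more Krt4 and Krt19 UMIs. With each library left out in turn, Fam25c ranged from -0.51 to 0.96, Lgals3 from -0.51 to 0.48, Sbsn from -0.41 to 0.19, Krtdap from -0.56 to 0.65, Dmkn from -0.58 to 0.66, Capns2 from -0.96 to 0.0781 and Ly6d from -0.995 to 0.35.

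Between stages, DESeq2 called 823 genes, no filter 1770, and leaving out a library 379 to 3468, the highest without E14.5 control 2. The suprabasal share of E14.5 controls 1 and 2 was 27.7 and 26.5% with the split at 16 UMIs, 25.6 and 25.2% thinned, 29.7 and 29.6% with no doublet removal, 29.6 and 31% with the gate of 20 UMIs, and 29.4 and 29.4% without the Krt4 and Krt19 cells. E14.5 LOF was at 20.7% thinned. E13.5 control 1 was at 0.290% with the split at 16 UMIs and 0.0965% thinned, and E13.5 LOF at 0.801 and 0%. Genes per suprabasal cell were 6.33, 6.67 and 6.25 thinned and 8.49, 8.63 and 8.22 with the split at 16. Of 360 levels 30, and of 90 shares 81, moved by more than their spread or interval, for the shares mostly by thinning.

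A genotype test in suprabasal cells and a suprabasal test over 6 libraries were not run, since E13.5 libraries had under 20 suprabasal cells. Depth limits the E13.5 values of Ly6d, Capns2 and Fam25c, which rest on 4 to 26 UMIs per library, and those of Elovl4 (43, 13 and 11 UMIs in control 1, control 2 and LOF) and Them5 (46, 22 and 24). With 1 LOF library per stage, no genotype difference has its own replicate check.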
